A study of Homo sapiens with 9 samples.

Results

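The genes described here are 10 genes of transforming growth factor beta (TGF-β), activin and GDF15 signaling, chosen by symbol, with no measured value in the rule but with earlier results of these data known: the ligands TGFB1, TGFB2, INHBA and GDF15, the activin antagonist FST, the receptors TGFBR1 and TGFBR2, the transducer SMAD3, and the inhibitors SMAD7 and SKIL. All 10 were found among the 26485 genes of the deposited tables. RNA was sequenced in 9 libraries of MDA-MB-231, a cell line of human triple-negative breast cancer. The cells stably expressed a nonspecific (NS) small hairpin RNA (shRNA), ASAH1 shRNA #1 or ASAH1 shRNA #2, with 3 libraries each, and no treatment other than the hairpin was named. ASAH1 encodes acid ceramidase, which splits ceramide into sphingosine and a fatty acid, and the hairpins have independent sequences against it. The design holds 1 nonspecific hairpin and 1 cell line, and the replicates were called biological without a statement that they came from separate infections or clones, so the p-values measure the spread between these libraries. Because the cells were lysed in bulk, fewer cells expressing a gene and less RNA per cell cannot be told apart.

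TGF-β and activin ligands are secreted dimers that assemble type I and type II receptor kinases. The type I receptor phosphorylates SMAD2 and SMAD3, which join SMAD4 and enter the nucleus, where they switch on genes that include the pathway's own brakes, SMAD7 and SKIL. TGF-β is stored outside the cell in a latent complex and must be released before it can bind. GDF15 is a distant relative secreted by stressed cells, and its known receptor, GFRAL, sits in the hindbrain. In MDA-MB-231 cells the TGF-β pathway is known for its part in invasion and bone metastasis.

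Regulatory sequence of 3 of the genes is shown because they changed by the largest amounts with shRNA #1 (GDF15 and INHBA) or rose with both hairpins (SKIL) in the comparisons that follow. The 250 bases before the RefSeq start of each gene (GRCh38.p14) were searched for 4 motifs on both strands: CAGAC, a half-site that SMAD proteins can bind; TGACGTCA, the cAMP response element bound by CREB and ATF proteins; TGACTCA, the AP-1 site; and TGATGNAAT, the composite site of C/EBP and ATF proteins. The windows of GDF15 and SKIL overlap annotated exons in GENCODE v44, so only 30 bases around each match are printed. These lie at chr19:18386021-18386050 for GDF15 and at chr3:170357596-170357625 and chr3:170357650-170357679 for SKIL, all on the plus strand. The INHBA window overlaps no exon and is printed whole, at chr7:41703091-41703340 on the minus strand. All 3 windows lie inside the span of their gene in GENCODE v44, which begins before the RefSeq start used here. Each printed stretch is read 5′ to 3′ on the strand of the gene, with the match in capitals.
GDF15: taaatacaccccCAGACcccgcccagctgt
SKIL, SMAD half-site: gacggcggcggcGTCTGcgggaagctgtgt
SKIL, cAMP response element: cgaggactcggTGACGTCAgagggctgtgt
INHBA: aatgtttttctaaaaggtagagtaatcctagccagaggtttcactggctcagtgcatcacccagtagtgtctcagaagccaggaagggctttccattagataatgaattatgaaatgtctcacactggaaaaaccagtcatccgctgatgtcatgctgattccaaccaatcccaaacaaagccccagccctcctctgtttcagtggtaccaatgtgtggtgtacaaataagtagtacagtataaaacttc

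GDF15 held CAGAC once, from 125 to 121 bases before the start. SKIL held it once on the minus strand, from 107 to 103 bases before the start, and held TGACGTCA, which is its own reverse complement, from 54 to 47 bases before it. INHBA had no match, and no match overlapped another. Of 35116 RefSeq windows of the same length, 38.0% held CAGAC, 4.20% TGACTCA, 1.65% TGACGTCA and 0.888% TGATGNAAT. The 10 genes have 24 such windows, since TGFBR1, TGFBR2, SMAD3 and SMAD7 have several starts, and 11 of the 24 held CAGAC. GC content was 58.4% in the window of GDF15, 42.8% in that of INHBA and 78.4% in that of SKIL, against a median of 58.0% over all windows, and the 3 windows held 9, 1 and 42 CpG dinucleotides. A match describes letters in a window, and no binding was measured.

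Read totals on genes were between 30989598 and 34867548 with NS shRNA, between 23806003 and 39791698 with shRNA #1 and between 35653318 and 49659106 with shRNA #2. The targeted gene followed the labels: ASAH1 had 135 ± 1.47 (SD, n = 3) CPM (reads scaled to library size, with TMM factors over the 9 libraries) with NS shRNA, 40.0 ± 1.78 (SD, n = 3) with shRNA #1 and 21.8 ± 0.623 (SD, n = 3) with shRNA #2. Markers of the line fixed for this report, VIM, CD44, AXL, KRT18 and CAV1, summed to between 5335 and 5431 CPM with NS shRNA, 4745 and 4777 with shRNA #1 and 4488 and 4575 with shRNA #2. Their members moved differently in the fits described below. AXL rose with both hairpins (log2 fold changes 0.38 and 0.24), and VIM and CAV1 fell with both. KRT18 fell with shRNA #1 alone (-0.78), and CD44 passed with neither. Leukocyte markers (PTPRC, CD3E and LYZ) summed to at most 0.445 CPM, with CD3E at 0 in all NS libraries. Endothelial markers (PECAM1, CDH5 and VWF) summed to between 2.93 and 3.18 CPM with NS shRNA, 1.68 and 2.69 with shRNA #1 and 1.47 and 2.09 with shRNA #2. PECAM1 held most of this sum (mean 2.88 CPM with NS shRNA). Fibroblast markers (DCN, LUM, PDGFRA, PDGFRB and COL1A1) summed to between 51.6 and 52.4 CPM with NS shRNA, 38.6 and 42.2 with shRNA #1 and 29.4 and 31.7 with shRNA #2. Of these, LUM and PDGFRB fell with both hairpins, COL1A1 passed with neither, and DCN and PDGFRA had too few reads. The hormone receptor, HER2 and luminal markers (ESR1, PGR, ERBB2, GATA3 and FOXA1) summed to between 118 and 124 CPM with NS shRNA, 74.5 and 79.2 with shRNA #1 and 92.1 and 105 with shRNA #2. With NS shRNA, ERBB2 (mean 98.3 CPM) and GATA3 (21.9) made up nearly all of this sum. ESR1, PGR and FOXA1 had NS means of 0.028, 0.049 and 0.031 CPM. In the same fits ERBB2 fell with both hairpins (-0.69 and -0.42), and GATA3 fell with shRNA #1 (-0.48) and rose with shRNA #2 (0.25). The part of these differences in the results was not tested.

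For each hairpin against NS shRNA, limma was run on log2(normalized count + 1) within the table of that hairpin. The direct comparison of the hairpins used recovered reads of the 9 libraries and the quasi-likelihood test of edgeR. Every p was adjusted over all genes tested by the Benjamini-Hochberg method, with a threshold of 0.05. Both comparisons with NS shRNA use the same 3 NS libraries. With shRNA #1, 6 of the 10 genes passed, 4 higher (INHBA, GDF15, SMAD7 and SKIL) and 2 lower (TGFB1 and TGFBR1), where 66.1% of all 14341 genes tested passed, 32.8% higher and 33.3% lower. With shRNA #2, 7 passed, 4 higher (TGFB2, FST, TGFBR1 and SKIL) and 3 lower (TGFB1, TGFBR2 and SMAD7), against 66.9% of 14250 genes, 33.5% higher and 33.4% lower. The hairpins differed from each other for 9 of the 10, SMAD3 being the exception, 4 of them higher with shRNA #2 and 5 lower, against 63.9% of 14381 genes, 31.4% higher and 32.5% lower. The number of genes that passed was therefore near that of the transcriptome in the comparisons with NS shRNA, and what is particular to each gene lies in its size and direction. The median absolute log2 fold change of the 10 genes was 0.37 with shRNA #1 and 0.33 with shRNA #2, beside 0.37 and 0.40 over all genes tested. A change that passed and reached 1.5-fold was seen for 2 genes with shRNA #1 (28.9% of all genes tested), 3 with shRNA #2 (32.5%) and 4 between the hairpins (27.1%). The libraries of the groups did not overlap for 6 genes with shRNA #1 (69.2% of all genes tested), 7 with shRNA #2 (70.0%) and 8 between the hairpins (67.5%).

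**Figure D1:**
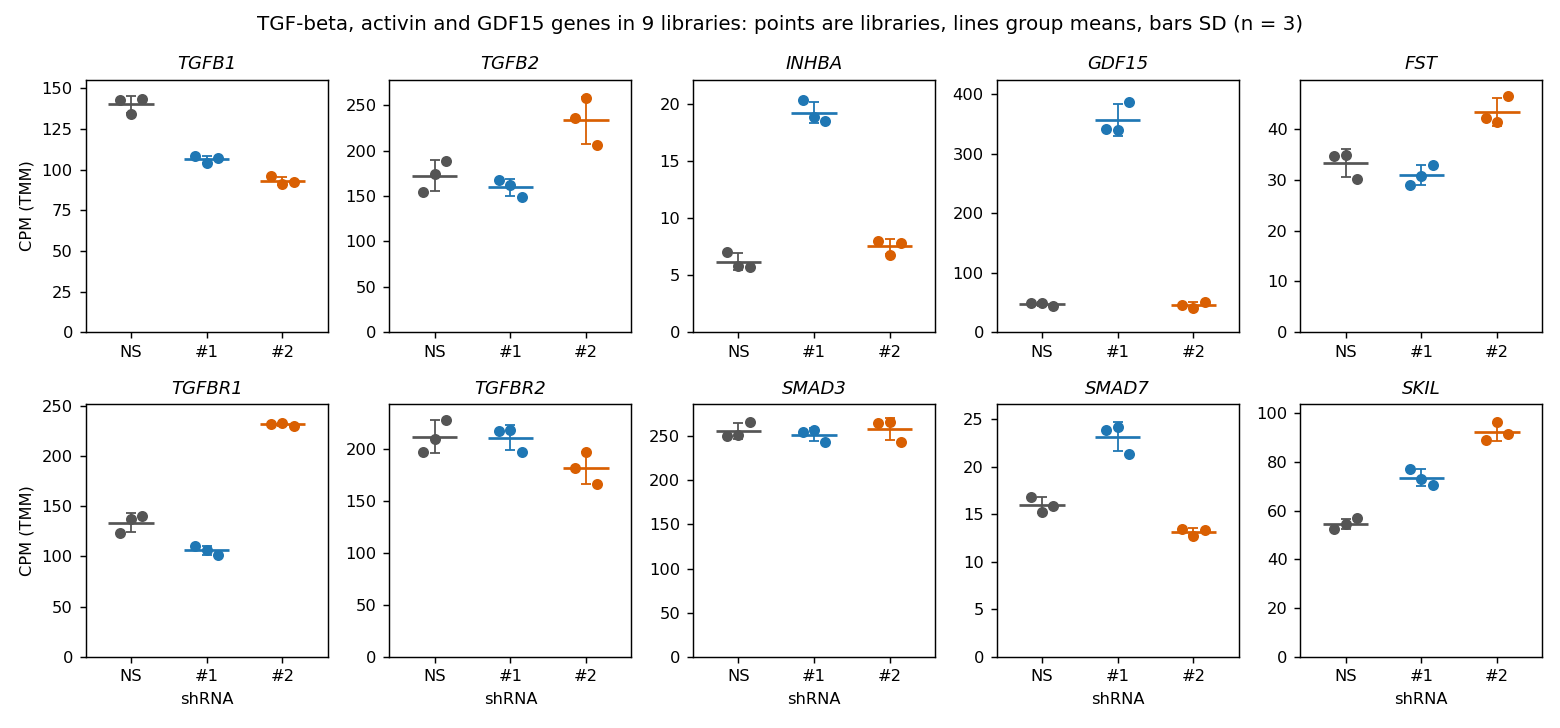
CPM of each of the 10 genes (vertical axis, from 0) in the 3 libraries of each group (NS, ASAH1 shRNA #1 and #2), with group means as lines and SD as bars. GDF15 and INHBA stand high in the shRNA #1 libraries alone, TGFBR1 in those of shRNA #2, and SMAD3 lies between 243 and 267 CPM in all 9.

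GDF15 showed the largest change of the 10. It lies on chromosome 19 of hg38 from 18374731 to 18389176 in GENCODE v44, with the microRNA gene MIR3189 inside it on the same strand. Its CPM values were 49.3, 49.1 and 43.5 in the NS libraries, 341, 341 and 387 with shRNA #1 and 45.1, 41.3 and 50.7 with shRNA #2. All shRNA #1 libraries were far above the other 6, and the libraries of NS shRNA and shRNA #2 overlapped. The log2 fold change was 2.91 with shRNA #1 (standard error 0.07, adjusted p = 5.25e-09, limma), a 7.50-fold rise, and 0.481% of all genes tested rose by as much or more. With shRNA #2 it was -0.057 (standard error 0.08, adjusted p = 0.568, limma), with a 95% confidence interval from -0.25 to 0.13, so a change of the size seen with shRNA #1 lies outside that interval. The difference between the hairpins was -2.98 on the log2 scale (adjusted p = 4.49e-10, edgeR). The hairpin that left less ASAH1 was the one without the GDF15 rise. The cause of this difference between the hairpins was not tested.

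INHBA encodes the βA subunit, which pairs with itself to form activin A. It lies on chromosome 7 from 41667168 to 41705834 and had the fewest reads of the 10, with 196 to 225 per NS library. INHBA-AS1 overlaps it on the other strand. The libraries had 7.08, 5.81 and 5.69 CPM with NS shRNA, 20.4, 18.9 and 18.6 with shRNA #1 and 7.99, 6.78 and 7.86 with shRNA #2. Again the shRNA #1 libraries stood apart, while the NS and shRNA #2 values overlapped. Its rise with shRNA #1 was 1.64 on the log2 scale (standard error 0.10, adjusted p = 8.44e-07, limma), or 3.11-fold. With shRNA #2 it was 0.28 (standard error 0.12, adjusted p = 0.0567, limma), with a 95% confidence interval from 0.018 to 0.55. That call depends on the setting: it passed in 1 limma fit of all 9 libraries (adjusted p = 0.0300, limma), without NS shRNA replicate 1 (0.38, adjusted p = 0.0212, limma) and without shRNA #2 replicate 2 (0.36, adjusted p = 0.0290, limma). INHBA was lower with shRNA #2 than with shRNA #1, at a log2 ratio of -1.36 (adjusted p = 3.77e-07, edgeR).

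FST encodes follistatin, which binds activin and keeps it from its receptors. It is on chromosome 5 from 53480626 to 53487134. NS libraries held 34.8, 35.0 and 30.1 CPM, shRNA #1 libraries 29.0, 30.7 and 32.9, and shRNA #2 libraries 42.1, 41.5 and 46.5. The shRNA #2 values were above all others and the remaining 6 overlapped. FST rose with shRNA #2 (log2 fold change 0.38, standard error 0.08, adjusted p = 0.00153, limma). With shRNA #1 its value was -0.11 (standard error 0.08, adjusted p = 0.220, limma), with a 95% confidence interval from -0.28 to 0.059, and it passed only without NS shRNA replicate 3 (-0.18, adjusted p = 0.0453, limma). FST was higher with shRNA #2 than with shRNA #1 by 0.48 (adjusted p = 0.000197, edgeR). The agonist INHBA and its antagonist FST thus each differed between the hairpins, in opposite directions.

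TGFB1 was the gene that fell with both hairpins, as 20.5% of 14075 genes tested did. It encodes TGF-β1 and lies on chromosome 19 from 41301587 to 41353922, where HNRNPUL1, CCDC97 and TMEM91 overlap it on the other strand, and the reads were counted by strand. CPM ran 143, 134 and 143 with NS shRNA, 108, 104 and 107 with shRNA #1, and 95.9, 91.1 and 92.4 with shRNA #2. No library of one group overlapped another group. The log2 fold change was -0.40 with shRNA #1 (standard error 0.05, adjusted p = 7.14e-05, limma) and -0.59 with shRNA #2 (standard error 0.05, adjusted p = 4.94e-06, limma), which leaves 0.758 and 0.663 of the NS level. It was lower with shRNA #2 than with shRNA #1, at a log2 difference of -0.20 (adjusted p = 0.00309, edgeR).

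TGFB2, which encodes TGF-β2, is on chromosome 1 from 218345336 to 218444619, where TGFB2-OT1 lies on the same strand and TGFB2-AS1 on the other. Its values were 154, 175 and 189 CPM with NS shRNA, 167, 162 and 149 with shRNA #1 and 236, 258 and 207 with shRNA #2. Only the shRNA #2 libraries stood clear of the NS range, and the spread within groups was wider than for TGFB1. TGFB2 rose with shRNA #2 (log2 fold change 0.43, standard error 0.09, adjusted p = 0.00186, limma). With shRNA #1 it was -0.11 (standard error 0.08, adjusted p = 0.218, limma), with a 95% confidence interval from -0.29 to 0.060, and without NS shRNA replicate 1 the value was -0.19 (adjusted p = 0.0363, limma). It was higher with shRNA #2 than with shRNA #1 by 0.54 (adjusted p = 0.000286, edgeR).

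TGFBR1, the type I receptor kinase that phosphorylates SMAD2 and SMAD3, changed in opposite directions with the hairpins, as 7.96% of 14075 genes tested did. It is on chromosome 9 from 99104038 to 99154192. The NS libraries had 123, 137 and 140 CPM, those with shRNA #1 had 110, 106 and 101, and those with shRNA #2 had 232, 232 and 230. The 3 groups did not overlap. TGFBR1 fell with shRNA #1 (log2 fold change -0.34, standard error 0.06, adjusted p = 0.000960, limma) and rose with shRNA #2 (0.79, standard error 0.06, adjusted p = 1.33e-06, limma), a 1.73-fold rise. Between the hairpins the log2 ratio was 1.12 (adjusted p = 2.65e-08, edgeR), and 3.02% of all genes tested were higher with shRNA #2 by as much or more.

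TGFBR2 is the type II receptor kinase that binds TGF-β and activates TGFBR1. It is on chromosome 3 from 30606601 to 30694142, with 197, 210 and 228 CPM with NS shRNA, 217, 218 and 197 with shRNA #1 and 181, 197 and 166 with shRNA #2. The groups sat close together, and the highest shRNA #2 library was less than 1 CPM under the lowest NS library. With shRNA #2 it fell by 0.23 on the log2 scale (standard error 0.08, adjusted p = 0.0213, limma), a call lost without NS shRNA replicate 2 (-0.23) or 3 (-0.17), without shRNA #2 replicate 1 (-0.23) or 3 (-0.16), in limma without the trend (adjusted p = 0.0687, limma) and with the replicate number as a block (adjusted p = 0.0563, limma). With shRNA #1 it was -0.012 (standard error 0.07, adjusted p = 0.881, limma), with a 95% confidence interval from -0.16 to 0.14. The hairpins differed by -0.22 (adjusted p = 0.0183, edgeR), with 1 library of each overlapping the other group, and that call was lost without shRNA #1 replicate 1 (-0.20) or 2 (-0.20) and without shRNA #2 replicate 1 (-0.22) or 3 (-0.16).

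**Figure D2:**
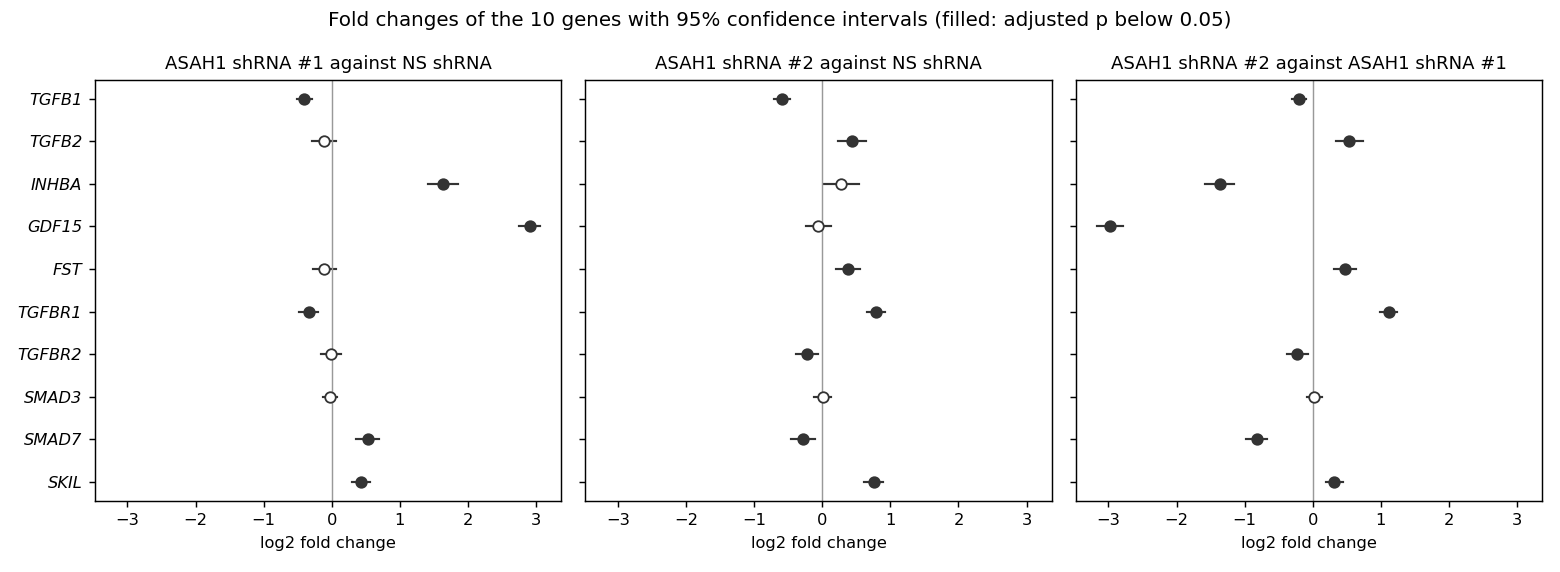
Log2 fold changes (horizontal axis) of the 10 genes in the 3 comparisons, with 95% confidence intervals as lines and filled points for an adjusted p below 0.05. GDF15 is at 2.91 with shRNA #1 and -0.057 with shRNA #2, and TGFBR1 and SMAD7 lie on opposite sides of 0 with the hairpins.

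SMAD3, the receptor-activated transducer, showed no difference that passed. It is on chromosome 15 from 67063763 to 67195173. It had 250, 251 and 267 CPM with NS shRNA, 255, 257 and 244 with shRNA #1 and 265, 266 and 243 with shRNA #2, and all groups overlapped. The log2 fold change was -0.028 with shRNA #1 (95% confidence interval -0.13 to 0.078, adjusted p = 0.613, limma) and 0.0071 with shRNA #2 (95% confidence interval -0.12 to 0.13, adjusted p = 0.920, limma). The hairpins differed by 0.024 (95% confidence interval -0.085 to 0.13, adjusted p = 0.688, edgeR).

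SMAD7, the inhibitory SMAD that blocks the type I receptor and is itself induced by TGF-β, also moved in opposite directions. It is on chromosome 18 from 48919853 to 48950965. The values were 16.9, 15.2 and 15.9 CPM with NS shRNA, 23.9, 24.2 and 21.4 with shRNA #1 and 13.5, 12.7 and 13.4 with shRNA #2. The groups did not overlap, with shRNA #1 above NS shRNA and shRNA #2 below it. SMAD7 rose with shRNA #1 (log2 fold change 0.53, standard error 0.08, adjusted p = 0.000195, limma) and fell with shRNA #2 (-0.28, standard error 0.08, adjusted p = 0.00860, limma). The log2 ratio between the hairpins was -0.83 (adjusted p = 1.33e-06, edgeR). For TGFBR1 the order of the hairpins was the reverse of that for SMAD7.

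SKIL encodes SnoN, a corepressor that binds SMAD complexes and is removed and then re-expressed after TGF-β. It is on chromosome 3 from 170357342 to 170396835 and was the gene that rose with both hairpins, as 20.0% of 14075 genes tested did. CPM was 52.6, 54.4 and 56.8 with NS shRNA, 77.2, 73.0 and 70.4 with shRNA #1 and 88.9, 96.5 and 91.3 with shRNA #2, without overlap between groups. The log2 fold change was 0.42 with shRNA #1 (standard error 0.06, adjusted p = 0.000141, limma) and 0.75 with shRNA #2 (standard error 0.06, adjusted p = 1.85e-06, limma), or 1.34-fold and 1.68-fold. It was higher with shRNA #2 than with shRNA #1 by 0.32 (adjusted p = 0.000423, edgeR). In the exact permutation test over libraries (two-sided), each non-overlapping comparison with NS shRNA gave p = 0.1, the smallest that 3 libraries against 3 allow.

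Levels of different genes can be set side by side only per length, here as CPM per kilobase of exon in GENCODE v44. With NS shRNA the order was TGFB1 with a mean of 42.9, TGFBR2 with 30.9, TGFB2 with 28.5, SMAD3 with 25.6, GDF15 with 22.7, TGFBR1 with 16.7, FST with 12.1, SKIL with 6.72, SMAD7 with 4.05 and INHBA with 0.748. TGFBR2 and TGFB2 overlapped over their libraries, as did TGFB2 and SMAD3, and the other neighbours in the order did not. With shRNA #1, GDF15 moved to the top at 171. With shRNA #2, TGFB2 led at 38.6, followed by TGFBR1 at 29.0 and TGFB1 at 28.5, which overlapped each other.

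**Figure D3:**
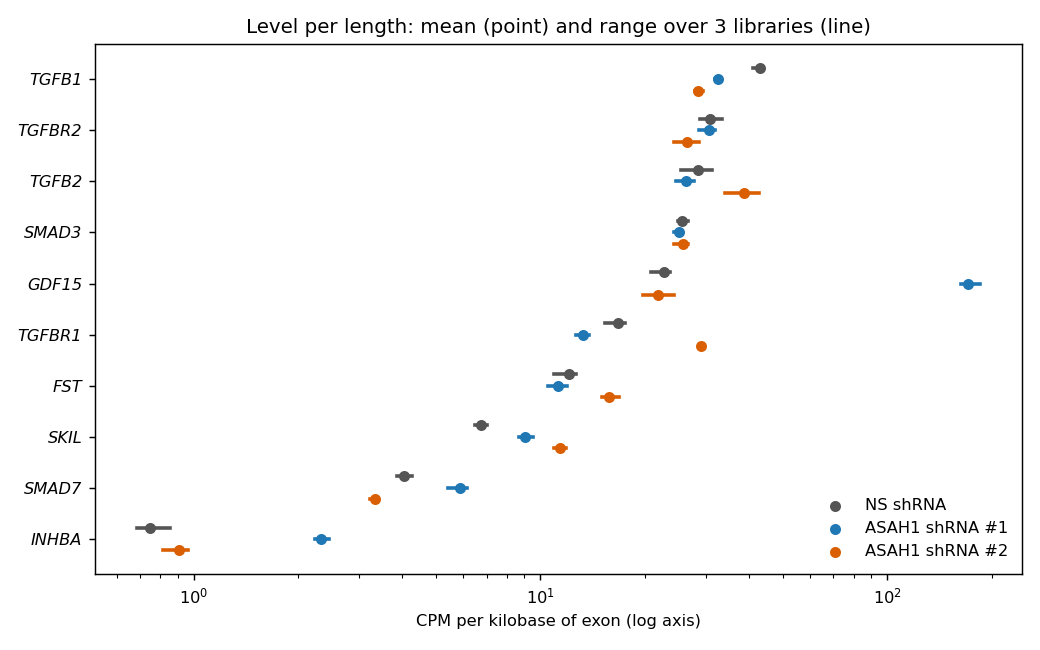
CPM per kilobase of exon (log axis) of the 10 genes, ordered by their mean with NS shRNA, with the mean as a point and the range over 3 libraries as a line for each group. INHBA lies lowest in every group, and GDF15 with shRNA #1 reaches 171.

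Ratios within a library show how the balance of related genes differed. Their sign depends on the exon lengths used, while their differences between groups do not. The log2 ratio of TGFB1 to TGFB2 per length was 0.59 ± 0.16 (SD, n = 3) with NS shRNA, 0.31 ± 0.090 (SD, n = 3) with shRNA #1 and -0.43 ± 0.17 (SD, n = 3) with shRNA #2. With the lengths used, TGFB2 was thus the more abundant isoform in the shRNA #2 libraries. The ratio of TGFBR1 to TGFBR2 was -0.89 ± 0.044 (SD, n = 3) with NS shRNA, -1.21 ± 0.042 (SD, n = 3) with shRNA #1 and 0.13 ± 0.11 (SD, n = 3) with shRNA #2, so that the type I receptor was near the level of the type II receptor in the latter. The ratio of INHBA to FST was -4.02 ± 0.15 (SD, n = 3), -2.27 ± 0.16 (SD, n = 3) and -4.11 ± 0.11 (SD, n = 3) in the same order. FST messenger was more abundant than INHBA messenger in all 9 libraries.

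**Figure D4:**
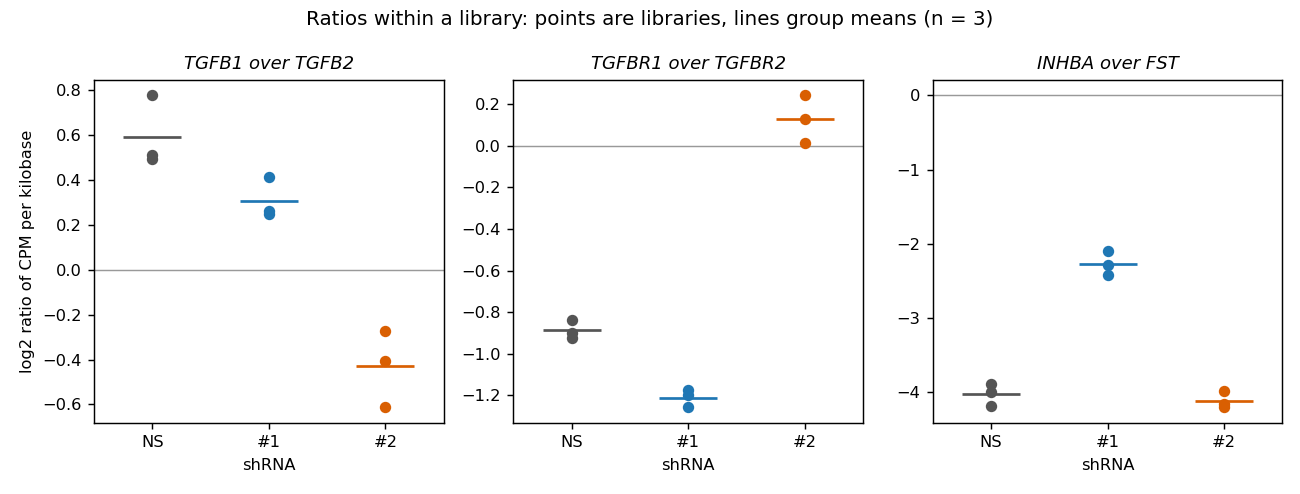
Log2 ratios of CPM per kilobase (vertical axes, of different range) within each library for TGFB1 over TGFB2, TGFBR1 over TGFBR2 and INHBA over FST, with group means as lines. With the exon lengths used, the first 2 ratios change sign in the shRNA #2 libraries. INHBA over FST is highest with shRNA #1, between -2.42 and -2.10.

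The other genes of the pathway were taken from 5 lists. Their counts stand beside a background of 66.1% of all genes that passed with shRNA #1 (32.8% higher, 33.3% lower, median log2 fold change 0.0013) and 66.9% with shRNA #2 (33.5% higher, 33.4% lower, median 0.013). Of the 14 other ligands, 5 were tested with each hairpin, and 4 of these were the same genes. With shRNA #1, 1 rose and 2 fell (60.0% passed, median -0.70), and with shRNA #2, 2 rose and 3 fell (median -0.85), so that the medians rest on partly different genes. The median with shRNA #1 is the value of INHBB, an inhibin β subunit that did not pass (adjusted p = 0.0927, limma) and was not tested with shRNA #2. INHBB had mean normalized counts of 14.9 with NS shRNA and 8.55 with shRNA #1, so it reached the minimum mean through its NS libraries. TGFB3, the third TGF-β isoform, fell with both hairpins (-1.15, adjusted p = 0.000139, and -1.92, adjusted p = 5.54e-06, limma) on at most 87 reads per library. GDF11 rose (0.69 and 0.77) and INHA, the inhibin α subunit, fell (-1.35 and -1.58) on at most 28 reads. GDF9 passed with shRNA #2 (-0.85) and not with shRNA #1 (-0.37), on at most 22 reads. INHBE, another inhibin β subunit, had 0, 0 and 1 reads in the NS libraries, 8, 28 and 21 with shRNA #1 and 17, 25 and 25 with shRNA #2. It was tested with shRNA #2 only, since its mean over the 6 libraries of the shRNA #1 table was under the minimum of 10. With shRNA #2 it reached that minimum only through the group where it was high (mean normalized counts of 0.33 and 20.7). The direction of its call was thus fixed by the minimum, though INHBE is counted in the 2 that rose and in the median.

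Among genes on the list for TGF-β latency and activation, more fell than rose. Of 12 tested, all passed with shRNA #1, against 66.1% of all genes, 2 higher and 10 lower (median -0.40, beside 0.0013 over all genes). With shRNA #2, 8 passed, or 66.7% against 66.9% of all genes, 1 higher and 7 lower (median -0.55, beside 0.013), so the number that passed was that of the transcriptome. LTBP2 and LTBP3, members of the latent TGF-β binding protein family, fell with both hairpins (LTBP2 -0.65 and -1.43, LTBP3 -1.35 and -0.87). The family did not move as one: LTBP1 rose with shRNA #1 (0.30) and fell with shRNA #2 (-0.51). LTBP4 fell with shRNA #1 (-0.41) and had -0.061 with shRNA #2 (adjusted p = 0.460, limma). NRROS, which tethers latent TGF-β on macrophages and microglia, fell with both hairpins (-0.39 and -1.41). So did ITGB6, the integrin subunit that releases TGF-β on epithelia (-1.01 and -1.94, on at most 70 reads). THBS1, thrombospondin 1, which can activate latent TGF-β, rose (0.27 and 0.66). LRRC32 had at most 4 reads per library and was not tested.

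Among the other receptors, 7 of 11 were tested, and 5 passed with each hairpin, or 71.4%, near the 66.1% and 66.9% of all genes. With shRNA #1, 3 were higher and 2 lower (median 0.21, beside 0.0013 over all genes), and with shRNA #2 the 5 were higher (median 0.30, beside 0.013). ACVR2A, an activin type II receptor, rose (0.50 and 0.39). TGFBR3, betaglycan, the coreceptor that presents TGF-β2, fell with shRNA #1 (-0.79) and rose with shRNA #2 (0.30). BAMBI, a decoy receptor, rose with shRNA #2 (0.88) and had 0.11 with shRNA #1 (adjusted p = 0.392, limma). ACVR1C rose with shRNA #2 (0.96) and had 0.58 with shRNA #1 (adjusted p = 0.119, limma), on at most 33 reads. GFRAL, the GDF15 receptor, had at most 1 read per library and its coreceptor RET at most 3, so neither was tested.

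All 16 genes on the list of other SMADs, adaptors and negative regulators were tested, and 14 passed with each hairpin, or 87.5%, against 66.1% and 66.9% of all genes. The name of the list does not cover each member: USP15, counted as higher with both hairpins (0.27 and 0.38), is a deubiquitinase. With shRNA #1, 9 were higher, against 32.8% of all genes, and 5 lower (median 0.19, beside 0.0013), and with shRNA #2, 12 were higher, against 33.5%, and 2 lower (median 0.35, beside 0.013). SMAD6, the inhibitory SMAD of the BMP branch, fell (-2.04 and -1.26), from 374 to 420 reads per NS library to 68 to 125 with shRNA #1 and 160 to 226 with shRNA #2. FSTL3, a follistatin relative that also binds activin, rose (1.06 and 1.12). TGIF2, a SMAD corepressor, rose (0.71 and 0.56), and so did ZFYVE9, the SARA adaptor that brings SMAD2 and SMAD3 to the receptor (0.27 and 0.90).

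Genes that TGF-β can induce went both ways. Of 14 reported, 13 were tested, and CDKN2B, with at most 2 reads, was not. With shRNA #1, 6 rose, 6 fell and 1 did not pass (92.3% passed, against 66.1% of all genes, and median 0.067, beside 0.0013). With shRNA #2, 4 rose, 6 fell and 3 did not pass (76.9% passed, against 66.9%, and median -0.12, beside 0.013). IL11 (4.56 and 3.86), KLF10 (2.15 and 2.46) and CDKN1A (2.03 and 1.85) rose with both hairpins, and IL11 is an interleukin, KLF10 a TGF-β early-response factor and CDKN1A a cyclin-dependent kinase inhibitor. COL4A1 (-0.85 and -1.10), TGFBI (-1.03 and -0.69), ANGPTL4 (-0.45 and -0.40) and CCN2, listed as CTGF in the tables (CTGF -0.12 and -0.30), fell with both. TAGLN (0.76 and -0.93) rose with shRNA #1 and fell with shRNA #2, and NEDD9 (-0.15 and 0.70) did the reverse. SNAI2 (1.35), which encodes the EMT factor SLUG, and JUNB (0.77) rose with shRNA #1, and with shRNA #2 SNAI2 had -0.12 (adjusted p = 0.212, limma) and JUNB -0.077 (adjusted p = 0.334, limma). BHLHE40 fell with shRNA #1 (-0.28) and had -0.082 with shRNA #2 (adjusted p = 0.225, limma). PTHLH, the parathyroid hormone-related protein, fell with shRNA #2 (-0.79) and had 0.067 with shRNA #1 (adjusted p = 0.689, limma).

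**Figure D5:**
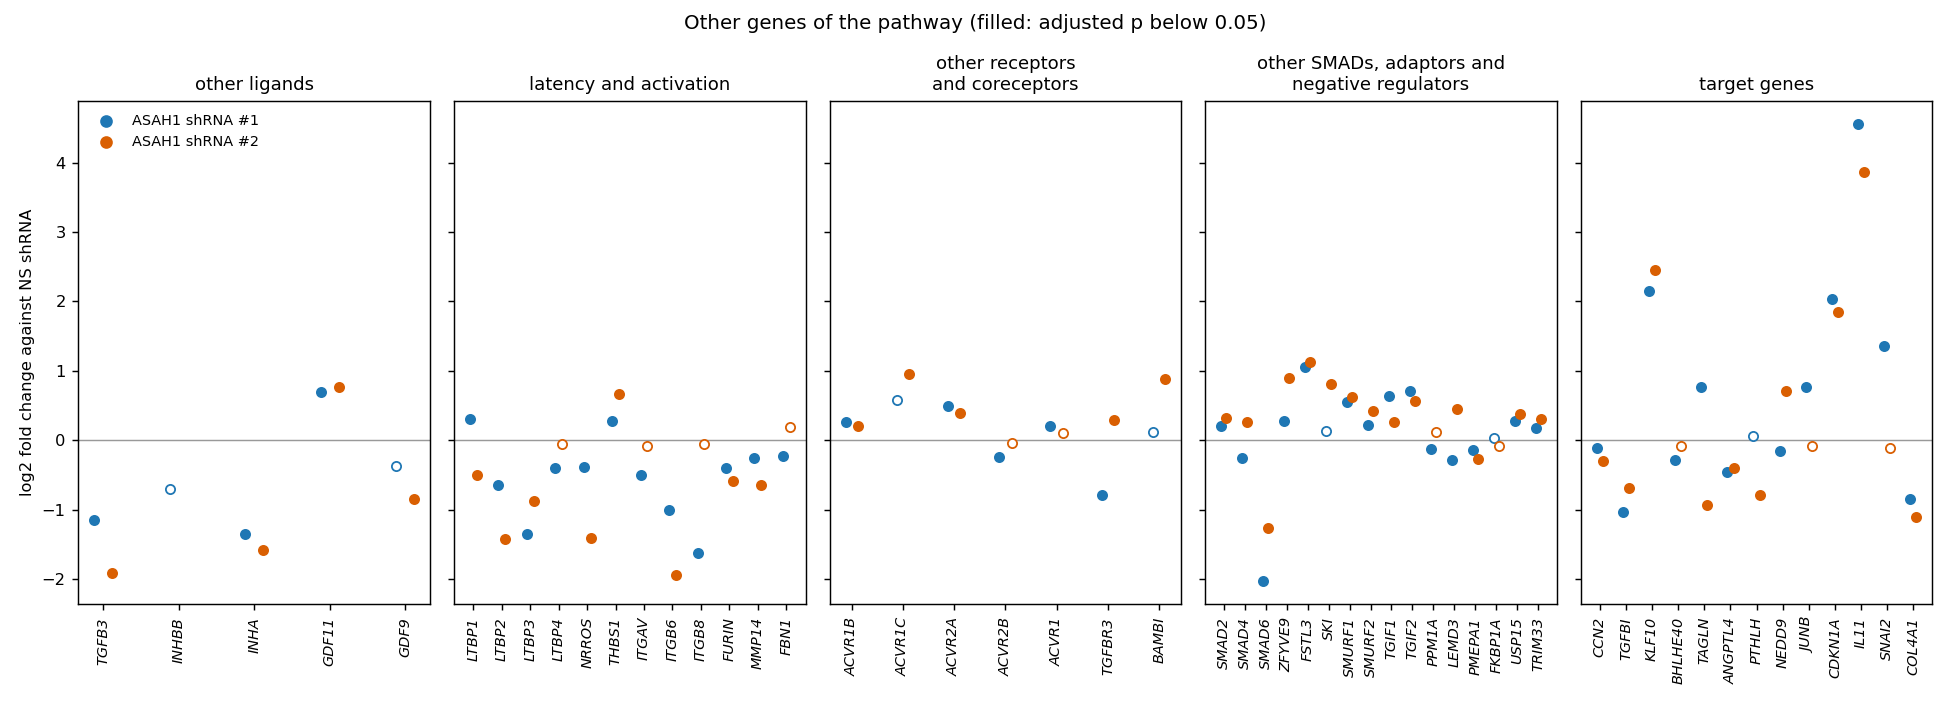
Log2 fold changes against NS shRNA (vertical axis) of the tested genes of the 5 lists, with shRNA #1 in blue and shRNA #2 in orange and filled points for an adjusted p below 0.05. INHBE is left out because its NS libraries hold at most 1 read. Most latency and activation genes lie below 0, most genes on the list of SMADs, adaptors and negative regulators lie above it, and target genes lie on both sides.

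The genes whose profiles lay nearest to those of GDF15, INHBA and TGFBR1, the 3 of the 10 with the widest range between group means, were found by the Euclidean distance of centred log2 CPM over the 9 libraries, among 11631 genes with a mean of at least 100 reads. GDF15 was nearest to HKDC1 (distance 0.72), PLA2G4C (0.84) and C9orf84 (1.07). INHBA was nearest to HSPBAP1 (0.34), MAP1LC3B (0.43) and LPXN (0.43). TGFBR1 was nearest to TMEM87B (0.13), FOXN3 (0.15) and ZNF367 (0.19). A small distance says that the log2 levels ran in parallel over these libraries, which fall into 3 groups. The distances of GDF15 were the largest, so its neighbours ran less closely. In mean log2 CPM, HKDC1 differed from NS shRNA by 3.44 with shRNA #1 and 0.10 with shRNA #2, and C9orf84 by 3.46 and 0.61. The log2 fold changes of GDF15 were 2.91 and -0.057.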

How the data were processed

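Total RNA of 9 MDA-MB-231 libraries was sequenced as single-end reads. Per the labels and the methods, the authors purified mRNA with oligo-dT beads for stranded libraries (the series text names ribosomal RNA depletion instead), used Trimmomatic 0.36 for trimming and STAR 2.7.1a for alignment to hg38, counted reads on UCSC genes by strand with htseq-count and ran DESeq2 1.28 for each hairpin against NS shRNA. The deposited tables hold a normalized signal, which is a read count divided by 1 size factor per library, set separately in each table. Their fold change, statistic and p-value columns are the authors' own comparison and were not used. 28 symbols turned into dates in one table were taken from the other, whose rows hold the same NS reads.

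Of the low values, 100% were whole multiples of 1 read within 0.05, and the NS reads of the tables had 0 differences, so reads were recovered. Fits used R 4.3.3 (DESeq2 1.42.0, edgeR 4.0.16, limma 3.58.1), and sequences were searched in Python 3.11.15. limma with an intensity trend was run on log2(value + 1) for genes whose mean reached 10, two-sided, and the fold changes are on that scale, which understates low genes. Confidence intervals come from the same fits. For edgeR their standard error is the one implied by the test statistic. The fits were also run on simulated counts. Few genes changed there and the spread was fixed, while most genes passed in these data, so its outcome is not used here. On the recovered reads, edgeR called 9476 genes with shRNA #1 and 9554 with shRNA #2, beside 9479 and 9538 in limma. Other alternatives were DESeq2, other scalings, filters and pseudocounts, limma without the trend, 1 fit of 9 libraries, the replicate block and leaving out each library. Intervals cover the spread between libraries, and depth limits genes with few reads. The chi-square per gene between replicates was at least 5.26, so no library copies another.

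The 10 genes and the 5 lists were chosen with earlier results of these data known, and their members are no independent support. Named are the 10 genes, ASAH1, all tested targets, and up to 4 genes per other list with the largest absolute mean log2 fold change over both comparisons, and the 3 nearest profiles of the 3 genes with the widest range. THBS1, LTBP1, LTBP4, USP15 and the genes with too few reads that are named, with INHBB and INHBE, were named after their values were seen. Positions and exon lengths come from GENCODE v44 on hg38, while the authors counted on UCSC genes. One listed target gene and one listed marker are not reported here and were left out of the counts and sums of their lists.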

Additional observations from a re-analysis of the deposited data

Results flagged for a closer look

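For 9 of the 10 genes the effect of the hairpins differed by the test of the difference itself, edgeR's quasi-likelihood test of shRNA #2 against shRNA #1. On the log2 scale shRNA #2 minus shRNA #1 was -2.98 for GDF15, -1.36 for INHBA, -0.83 for SMAD7, -0.22 for TGFBR2 and -0.20 for TGFB1. It was 1.12 for TGFBR1, 0.54 for TGFB2, 0.48 for FST and 0.32 for SKIL. The same test passed for 63.9% of all genes tested, so such a difference was common in these libraries. Single outlying libraries were not tested for in these groups of 3.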

How the results depend on the processing

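Of 30 fold changes (10 genes in 3 comparisons), 21 kept their direction and their side of the threshold under every alternative run, among them GDF15 and INHBA with shRNA #1 and TGFB1, TGFBR1, SMAD7 and SKIL in all 3 comparisons. The counts of genes that passed stayed within 1.5 times of those reported. For TGFBR2 with shRNA #2 the value of -0.23 no longer passed without the trend (adjusted p = 0.0687, limma) or with the replicate number as a block (-0.23, adjusted p = 0.0563, limma). Leaving out one library at a time gave -0.29 to -0.16, and the call was lost without NS shRNA replicate 2 (-0.23) or 3 (-0.17) and without shRNA #2 replicate 1 (-0.23) or 3 (-0.16). Between the hairpins TGFBR2 ran from -0.29 to -0.16 and lost its call without shRNA #1 replicate 1 (-0.20) or 2 (-0.20) and without shRNA #2 replicate 1 (-0.22) or 3 (-0.16). INHBA with shRNA #2 passed in 1 limma fit of 9 libraries (0.28) and ran from 0.23 to 0.38 with one library left out. With shRNA #1, TGFB2 ran from -0.19 to -0.044 and FST from -0.18 to -0.071 in such fits. Values near 0 changed sign: TGFBR2 with shRNA #1 (-0.062 to 0.046), SMAD3 with shRNA #1 (-0.046 to 0.0043), SMAD3 with shRNA #2 (-0.016 to 0.050, and -0.038 under upper quartile rescaling) and GDF15 with shRNA #2 (-0.13 to 0.013). The cause was not tested. The replicate block changed no other call of the 10 genes. Over all genes it left 8237 calls with shRNA #1, 8526 with shRNA #2 and 8590 between the hairpins. Correlations of same-numbered libraries after removing group means ran from -0.595 to 0.470, with 2 of 9 above 0.1, and the numbers were not taken to pair the libraries.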
